A study of Mus musculus with 24 samples.

Results

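The 44 genes examined here encode the collagen chains of the mouse. They were taken from the gene symbols alone, as every symbol made of Col, a number, the letter a and a number, and they were 44 of the 25755 genes in the deposited tables. By the type of collagen they fall into 11 fibrillar chains, 6 chains of the basement membrane network (collagen IV), 3 short-chain network collagens (VIII and X), 9 FACITs (fibril-associated collagens with interrupted triple helices), 7 chains of the beaded filament collagen VI and the related collagen XXVIII, the anchoring fibril chain Col7a1, 4 transmembrane collagens, the 2 multiplexins Col15a1 and Col18a1, and Col26a1.

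A collagen molecule is a trimer of chains that wind into a triple helix, and most types need a fixed combination of chains: collagen I holds Col1a1 and Col1a2 chains, while the main collagen IV of basement membranes holds Col4a1 and Col4a2 chains. Fibrillar collagens bear the load of the dermis, FACITs decorate the fibrils, and collagens IV, VII, XV and XVIII belong to basement membranes and the zones next to them. The dermal papilla (DP) is the mesenchymal cluster inside the bulb of the hair follicle that signals to the epithelium above it, and its extracellular matrix expands when the follicle enters anagen, the growth phase, and shrinks in telogen, the resting phase.

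RNA-seq had been performed on DP cells sorted from the back skin of single mice at postnatal day 20 (P20, first telogen), P24 (early anagen), P28 (mid-anagen) and P60 (second telogen), with 3 control and 3 dM1/2 mice at each age and 24 libraries in all. The dM1/2 mice carried 1 copy of Corin-cre, which is active in the DP, and were homozygous for floxed Hdac1 and floxed Hdac2, the genes of 2 class I histone deacetylases. Control mice carried Corin-cre as well, with at least 1 floxed allele but at least 1 wild-type allele of Hdac1 or Hdac2. The study's methods give 5 such control genotypes and the labels do not say which library had which. The cells of both genotypes were marked by YFP and sorted repeatedly, so the libraries hold what passed that gate.

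Reads on genes ranged from 11635062 to 13369732 per library at P20, from 8171944 to 9724000.0 at P60, from 35469841 to 49331751 at P24 and from 37171260.0 to 48331795 at P28. The telogen libraries were thus shallower than every anagen library, and they also differed in sex: Xist ranged from 8113 to 26333 normalized reads in the 12 telogen libraries and from 0 to 3.91 in the 12 anagen libraries. Hair cycle stage, sex and depth therefore cannot be told apart in a comparison of ages. Hdac1 held 675, 668 and 668 normalized reads in P24 control and 209, 188 and 116 in P24 dM1/2. It fell by 2.01 ± 0.22 on the log2 scale in dM1/2 at P24 (adjusted p = 0.00167) and did not pass the test at P20, P28 or P60 (log2 differences -0.72, -0.58 and -0.25). At P28 the control held 214, 529 and 105 and dM1/2 190.2, 149 and 126, so that P28 controls 1 and 3 lay among or near the mutants. Mice homozygous for floxed Hdac1 and heterozygous for floxed Hdac2 are among the 5 control genotypes. Hdac2, at 925, 1048 and 1069 in P24 control and 1157, 1223 and 1282 in P24 dM1/2, passed at no age (log2 differences -0.01 to 0.27). These values cover the whole genes, and reads in the deleted exons were not analysed here. The results at P28 are therefore also given without single controls. All 16 DP markers examined were detected. Their summed level ranged from 19793 to 474265 normalized reads per library, against 189.7 to 886 for 12 keratinocyte markers and 184 to 2282 for 8 immune markers. The sum of 9 endothelial and mural markers ranged from 765 to 11426, and that of 9 muscle and dermal sheath markers from 2301 to 11024. The endothelial and mural sum was 4681, 3699 and 1280 in P24 control and 2101, 1022 and 1632 in P24 dM1/2. At P28 it was 3522, 5412 and 765 in control and 1530, 1910 and 2685 in dM1/2. The part of such cells in the collagen levels was not tested. The 10 genes listed here as markers of other fibroblasts (Dpp4, Pi16, Ly6a, Cd34, Ly6c1, Dlk1, Mfap5, Sfrp4, Pparg and Adipoq) were also present. Their sum ranged from 4298 to 50891 in anagen and from 28841 to 137014 in telogen, whereas the DP marker sum ranged from 146226 to 474265 in anagen and from 19793 to 71381 in telogen.

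The genes for the paired collagen IV chains lie head to head, and the start sites of Col4a1 (minus strand) and Col4a2 (plus strand) overlap by 22 bases on chromosome 8. This stretch is shown because the expression of both genes changed in the same comparisons, together with the bases just upstream of Col15a1 and Col23a1, which fell in the mutant as well. The sequences are from RefSeq (GRCm38.p6) and are written on the plus strand. Capitals mark GGGCGG or its reverse complement CCGCCC, the binding motif of Sp1-type factors.
Col4a1 and Col4a2 shared start, chr8:11312805-11312826: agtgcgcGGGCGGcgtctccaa
Col15a1, chr4:47207762-47208011: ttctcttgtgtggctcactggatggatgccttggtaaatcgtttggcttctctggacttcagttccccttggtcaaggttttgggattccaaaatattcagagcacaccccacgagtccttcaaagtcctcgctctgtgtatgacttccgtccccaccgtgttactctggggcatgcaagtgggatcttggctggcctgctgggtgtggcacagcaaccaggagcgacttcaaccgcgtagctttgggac
Col23a1, chr11:51289670-51289919: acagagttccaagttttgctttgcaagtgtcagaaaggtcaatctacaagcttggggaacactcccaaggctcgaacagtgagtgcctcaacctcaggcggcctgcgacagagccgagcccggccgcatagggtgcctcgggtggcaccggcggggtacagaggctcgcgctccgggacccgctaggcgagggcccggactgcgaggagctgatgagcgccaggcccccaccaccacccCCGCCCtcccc

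Promoter windows of 300 bases (250 before and 50 after the start) were found for 35 of the 44 collagen genes, with 38 windows. GGGCGG, searched on both strands, lay in 60.5% of the 38 collagen windows and in 35.7% of all 32851 windows. CCAAT lay in 34.2% against 37.4%, and TATAAA in 13.2% against 13.6%. The whole Col15a1 window held none of these letters in these orders. Col4a4 and Col4a3 also lie head to head with 71 bases between their starts, and Col4a6 and Col4a5 with 1308 bases between them.

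A small number of chains supplied most collagen reads. Col1a1, Col1a2 and Col3a1 together took 60.1% of them in P28 control 3 and 79.0% in P24 dM1/2 2. In the other libraries they took 83.3 to 95.2%. Values are given as normalized reads, that is, read counts divided by a size factor per library, and levels of different genes were compared per kilobase (kb) of exon. Col1a1, Col3a1 and Col1a2, the chains of collagens I and III that form the bulk of dermal fibrils, led with means over all 24 libraries of 366152, 117138 and 108503 normalized reads per kb. The next gene in this order, Col6a1, stood at 8910.5 per kb. After it came Col5a1, Col6a3, Col15a1, Col6a2, Col4a1, Col5a2 and Col4a2, from 8515 down to 3229.6 per kb. At the other end, 12 members had a mean of 3.5 to 15.3 per kb, with Col2a1, the main chain of cartilage, at the bottom. Col9a1 had no read in 6 libraries, Col6a4 in 3, and Col10a1 and Col19a1 in 1 each, while the other 40 members had reads in every library.

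**Figure D1:**
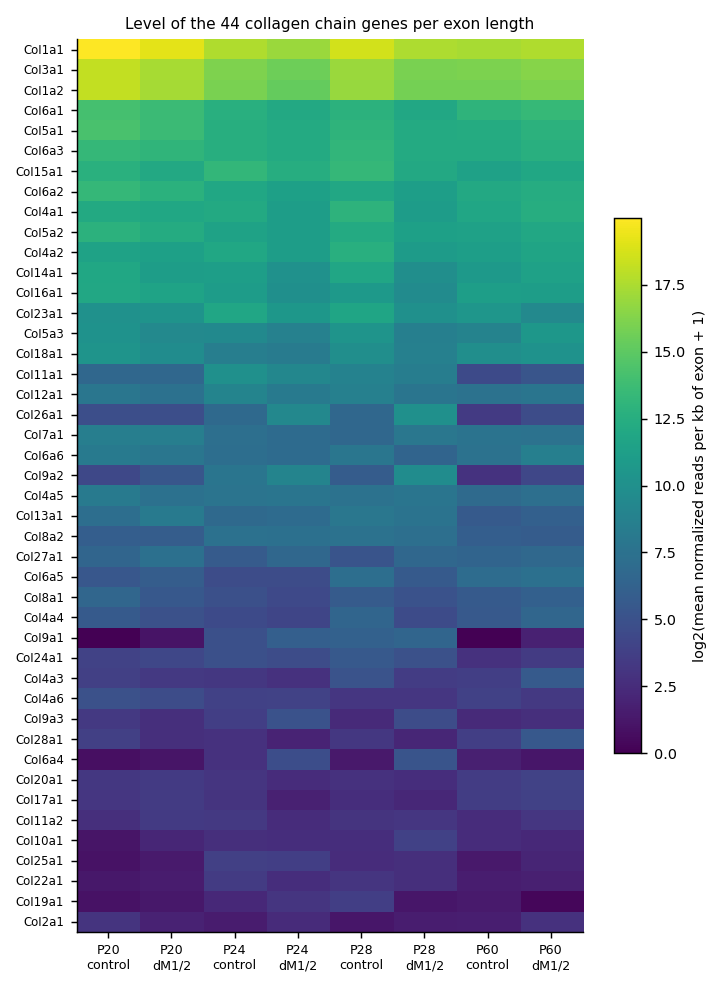
Heat map of the mean level of each of the 44 collagen chain genes (rows, ordered by overall level) in the 8 groups (columns, 3 libraries each); colour is log2 of mean normalized reads per kb of exon plus 1. Col1a1, Col3a1 and Col1a2 stand apart at the top in every group, and Col9a1 is at 0 in both telogen control groups.

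Collagen reads took a large and unequal share of the libraries. In P20 control they made up 39.5, 44.4 and 41.1% of all reads on genes in the 3 libraries, and in P20 dM1/2 32.8, 33.3 and 28.0%. Col1a1 alone reached 21.4% of reads in P20 control 2. In P24 control the collagen share was 22.9, 18.6 and 12.7%, and in P24 dM1/2 it was 15.9, 8.48 and 14.2%. The P28 controls were far apart, at 24.0, 41.4 and 6.66%, while P28 dM1/2 lay between them at 12.4, 15.2 and 20.9%. At P60 the shares were close, 13.9, 14.1 and 12.5% in control and 13.9, 15.1 and 16.8% in dM1/2.

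**Figure D2:**
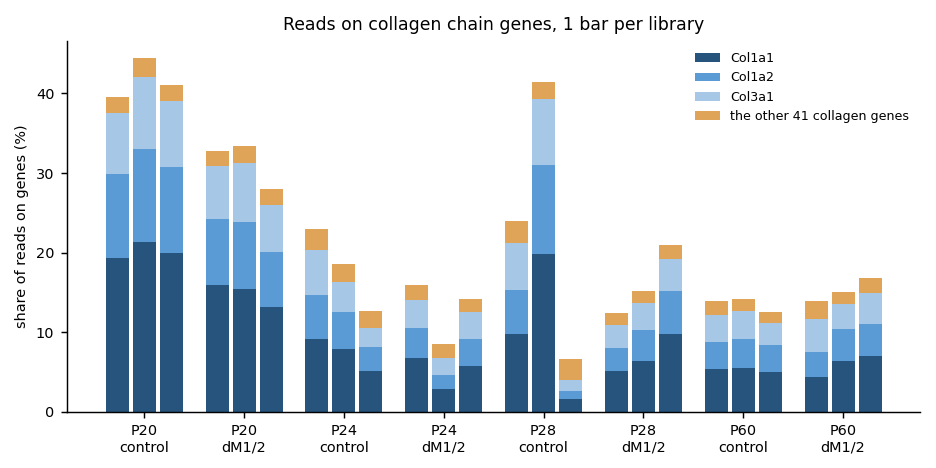
Share of reads on genes (percent) that fell on collagen chain genes, 1 bar per library in replicate order, split into Col1a1, Col1a2, Col3a1 and the remaining 41 genes. The 3 P28 control bars run from 6.66% to 41.4%, while the P60 bars all lie between 12.5% and 16.8%.

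The spread of the abundant chains within a group was wide in anagen. Col1a1 held 2047590.3, 5826925 and 255769 normalized reads in the P28 controls, and 811262, 1143712 and 1805455 in P28 dM1/2. Col1a2 held 1171029.9, 3266006 and 170891 in the P28 controls, and Col3a1 1230991, 2451575 and 232472. All 3 chains were thus highest in control 2 and lowest in control 3. The summed markers of other fibroblasts stood in the same order in these libraries (29416, 50891 and 4298), and the summed DP markers in the opposite order (295767, 162862 and 474265). In the P24 controls Col1a1 held 1722258, 1413113 and 881731, the other fibroblast markers 29545, 12944 and 6455 and the DP markers 338587, 360435 and 414685, again in the same and in the opposite order. The other groups varied: over all 8 groups Col1a1 stood in the same order as the other fibroblast sum in 4 and in the opposite order in 1, and in the opposite order to the DP sum in 3 and in the same order in 1. In bulk samples such as these, fewer cells of a type and less RNA per cell cannot be told apart, and the part of other fibroblasts in the collagen levels was not tested.

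**Figure D3:**
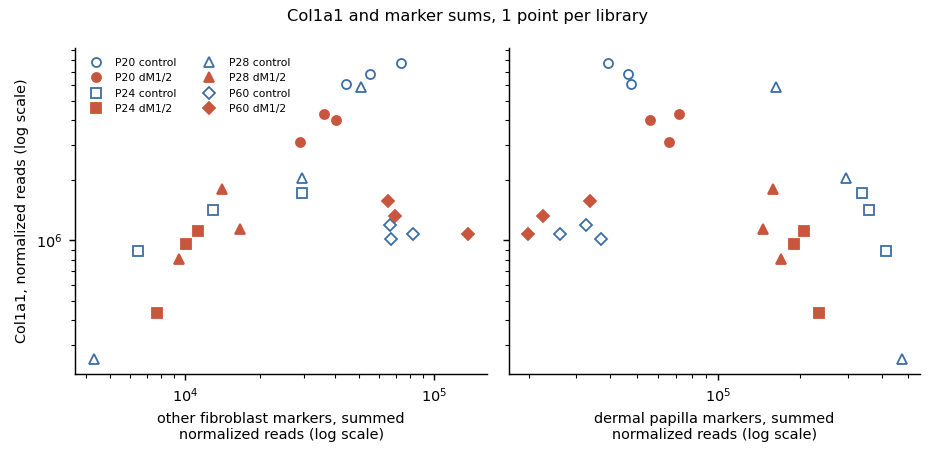
Col1a1 (vertical axis, normalized reads) against the summed normalized reads of 10 other fibroblast markers (left) and of 16 DP markers (right), both axes logarithmic, 1 point per library; open blue symbols are control and filled red symbols dM1/2. Within both anagen control groups Col1a1 is higher where the other fibroblast sum is higher and the DP sum is lower. Over all 8 groups it follows the order of the other fibroblast sum in 4 and the reverse in 1.

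The first comparison asked how collagen chains change with the hair cycle in control DP cells, the cycle being the process in which DP activity is studied. Tests used limma on log2(normalized reads + 1), with p-values adjusted by the Benjamini-Hochberg method over all genes tested, and a gene passed at an adjusted p under 0.05. In anagen (P24 and P28) against telogen (P20 and P60), 15 of 44 members rose and 6 fell, 21 in all, against 45.6% of all 14066 genes tested (23.8% that rose and 21.9% that fell). The risers included 5 of 9 FACITs and 3 of 4 transmembrane collagens, whereas Col1a1, Col1a2 and Col3a1 did not pass.

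Col9a1 encodes a chain of the FACIT collagen IX, best known from cartilage. It had no read in any of the 6 telogen control libraries, whereas the anagen controls held 117, 178 and 129 normalized reads at P24 and 369.7, 308 and 429 at P28. Set against a floor of 3 reads per telogen library, its anagen mean was at least 33.9-fold higher. Its partner Col9a2 held 61.6, 40.6 and 80.3 at P20, 559, 452 and 1009 at P24, 275, 51.9 and 184 at P28 and 23.1, 19.1 and 20.8 at P60. Col9a2 was thus highest at P24, and it rose by 3.04 ± 0.37 (SE, adjusted p = 0.000127) on the log2 scale in anagen over telogen. Col11a1, which forms a minor fibrillar collagen, had 1023, 1171 and 1643 at P20, 12451, 13034 and 14652 at P24, 7838, 3082 and 6500.1 at P28 and 313, 307 and 209.8 at P60. Every anagen library lay above every telogen library, and Col11a1 rose by 3.86 ± 0.22 (SE, adjusted p = 5.82e-07). Col26a1, a short collagen of the extracellular matrix, held 150.0, 281 and 241 at P20, 933, 1158 and 693 at P24, 1040.4, 447 and 1003 at P28 and 94.5, 85.8 and 57.6 at P60. It rose by 2.68 ± 0.25 (SE, adjusted p = 2.21e-05), again with no overlap. The other risers were Col4a1, Col4a2, Col8a2, Col12a1, Col13a1, Col15a1, Col19a1, Col22a1, Col23a1, Col24a1 and Col25a1, by 0.51 to 2.48 on the log2 scale.

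Of the 6 members that fell in control anagen, Col27a1, a fibrillar chain, was the one without overlap, 1 of 44 against 7.05% of all genes tested. It held 1733, 885 and 995 at P20 and 1144, 1225 and 918 at P60, against 548, 677 and 881 at P24 and 518, 427 and 457 at P28. Col27a1 fell by 0.98 ± 0.17 (SE, adjusted p = 0.00116). Col7a1, the chain of the fibrils that anchor basement membranes to the dermis, fell by 1.19 ± 0.26 (SE, adjusted p = 0.00354), and the collagen IV chain Col4a6 fell by 1.18 ± 0.37 (SE, adjusted p = 0.022). Col6a1 fell by 1.0 ± 0.36 (SE, adjusted p = 0.0431), a call that was lost without P20 control 1, 2 or 3, P24 control 2 or 3, P28 control 1 or P60 control 1, 2 or 3 (log2 difference -1.09 to -0.92). Col16a1 and Col18a1 fell as well (log2 differences -0.68 and -0.91). Col1a1, Col1a2 and Col3a1 had log2 differences of -1.0 ± 1.45 (SE, adjusted p = 0.597), -0.99 ± 1.09 (SE, adjusted p = 0.48) and -0.84 ± 1.0 (SE, adjusted p = 0.513), and none passed. These standard errors were fitted with limma's trend of the variance over mean level. With 1 prior variance for all genes they were 0.61, 0.58 and 0.50, and again none passed. In the same comparison 14 of 16 DP markers rose and 1 fell, 6 of 10 other fibroblast markers fell and 1 rose (Pparg). Their part in these differences was not tested.

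Between the anagen ages of the control, 4 members rose from P24 to P28 and 2 fell, 6 of 44, against 5.64% of all genes tested (3.01% that rose and 2.63% that fell). Col6a5, a chain of collagen VI, held 320.0, 263 and 89.7 at P24 and 2150.5, 1543 and 618 at P28 and rose by 2.69 ± 0.54 (SE, adjusted p = 0.0172). It lost its call without P24 control 3 or P28 control 1 (log2 difference 2.13 to 2.31). Col4a4, a collagen IV chain of specialised basement membranes, held 393, 158 and 126 at P24 and 1163, 1204 and 491 at P28 and rose by 2.15 ± 0.43 (SE, adjusted p = 0.0158), a call lost without P24 control 2 or 3 or P28 control 1 (log2 difference 1.82 to 1.98). Col18a1, the heparan sulfate-bearing multiplexin that releases endostatin, held 3082, 2986 and 1861 at P24 and 5346, 8497 and 5823 at P28, and its rise of 1.32 ± 0.22 (SE, adjusted p = 0.00702) passed without any one of the 12 libraries. Col9a1 rose by 1.39 ± 0.35 (SE, adjusted p = 0.0412), and lost the call without any single one of the 6 anagen control libraries (log2 difference 1.27 to 1.57). Col9a2 moved the other way: it fell by 2.19 ± 0.53 (SE, adjusted p = 0.0347), with calls lost without P20 control 3, P24 control 1, 2 or 3, P28 control 2 or P60 control 1, 2 or 3 (log2 difference -2.44 to -1.49). Col11a1 fell by 1.31 ± 0.31 (SE, adjusted p = 0.0325), lost without P24 control 1, 2 or 3 or P28 control 2 (log2 difference -1.36 to -0.90). The count of 6 became 3 without P24 control 1, 2 without P24 control 2, 1 without P24 control 3 and 3 without P28 control 1.

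Between the telogens of the control, 6 of 44 members were lower at P60 than at P20 and none was higher, against 8.36% of all genes tested (4.79% that fell and 3.57% that rose). Col1a1 held 6100056, 7735874 and 6769696 normalized reads at P20 and 1075063, 1187812 and 1013811 at P60, without overlap. Its log2 difference of -2.65 ± 2.05 (SE, adjusted p = 0.43) did not pass, nor did it with 1 prior variance for all genes (SE 0.87, adjusted p = 0.0922) or by edgeR (adjusted p = 0.128), whereas DESeq2 called it (adjusted p = 0.00267). All of these fits shared the spread of the 12 control libraries, the P28 controls included. For 22 of 44 members every P60 control lay below every P20 control, against 17.0% of all genes. Col11a1 fell by 2.20 ± 0.31 (SE, adjusted p = 0.00579) and passed without any one library. Col5a1, which starts collagen I fibrils, fell by 1.92 ± 0.48 (SE, adjusted p = 0.0343), from 135119.5, 199333 and 159686 to 51174, 44148 and 35010.0. It lost the call without P20 control 2 or 3, P24 control 2, P28 control 1 or P60 control 1, 2 or 3 (log2 difference -2.05 to -1.77). Col13a1, a transmembrane collagen, fell by 1.55 ± 0.41 (SE, adjusted p = 0.0399), lost without P20 control 1, 2 or 3, P24 control 2, P28 control 1 or P60 control 1, 2 or 3 (log2 difference -1.72 to -1.36). Col26a1 fell by 1.47 ± 0.35 (SE, adjusted p = 0.0311), lost without P20 control 2 or 3 or P60 control 1, 2 or 3 (log2 difference -1.61 to -1.26). Col6a3 and Col15a1 also fell (log2 differences -1.11 and -1.23). The count of 6 became 1 without P20 control 2, 1 without P20 control 3, 3 without P24 control 2, 3 without P28 control 1, 10 without P28 control 2, 13 without P28 control 3, 1 without P60 control 1, 2 without P60 control 2 and 1 without P60 control 3, and DESeq2 called 13.

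The main comparison asked how the loss of Hdac1 and Hdac2 affects collagen expression at each age. In early anagen (P24) 6 of 44 members rose and 8 fell in dM1/2, 14 in all, against 26.6% of all 14028 genes tested (14.8% that rose and 11.8% that fell). In mid-anagen (P28) 6 rose and 12 fell, 18 in all, against 35.5% of 14126 genes (20.0% that rose and 15.6% that fell). The median log2 difference of the 44 members was -0.33 at P24 and -0.49 at P28, beside -0.01 and 0.00378 over all genes. Col26a1, Col27a1, Col6a4, Col9a2 and Col9a3 rose at both ages, and Col12a1, Col14a1, Col15a1, Col16a1, Col23a1, Col4a1 and Col4a2 fell at both. The remaining calls were at 1 age: Col9a1 rose and Col11a1 fell at P24, while Col7a1 rose and Col18a1, Col19a1, Col4a4, Col5a3 and Col6a5 fell at P28. The difference itself between the effects at P28 and P24 passed for 0 of 44 members by limma (13 at an unadjusted p under 0.05), against 0.707% of all genes, for 0 by edgeR and for 6 by DESeq2. The counts depended on single libraries. At P24 the 14 became 7 without control 2, 8 without dM1/2 1, 9 without dM1/2 2 and 9 without dM1/2 3. At P28 the 18 became 11 without dM1/2 2, and 26 without control 3, the library with the lowest Col1a1 and the lowest Hdac1 of the P28 controls. Without control 1 it was 14.

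**Figure D4:**
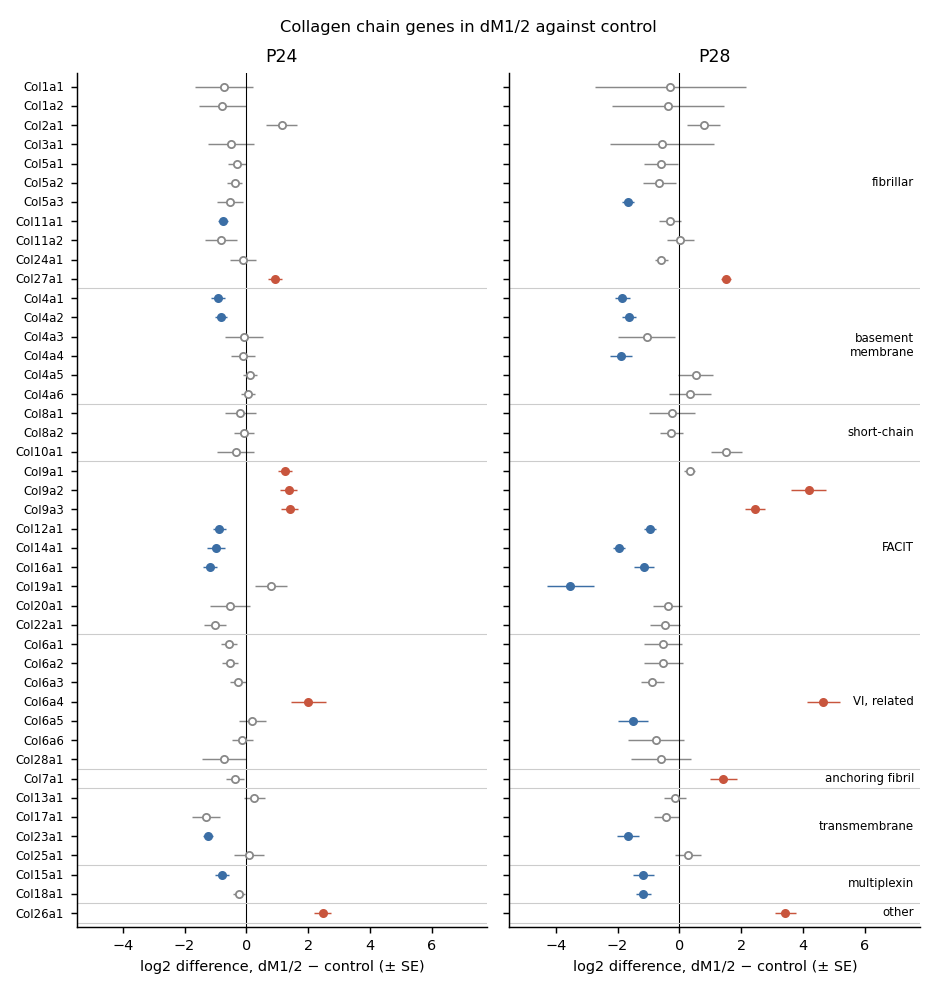
Log2 difference (dM1/2 minus control) with its standard error for each of the 44 collagen chain genes at P24 (left) and P28 (right), grouped by type; filled red points rose, filled blue points fell (adjusted p under 0.05) and open grey points did not pass. Col6a4, Col9a2, Col9a3, Col26a1 and Col27a1 are to the right at both ages, and Col4a1, Col4a2 and Col14a1 to the left.

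The abundant fibrillar chains did not pass at either anagen age. Col1a1 held 1722258, 1413113 and 881731 normalized reads in P24 control and 1112492, 434972 and 959483 in P24 dM1/2, and the groups overlapped. Its log2 difference was -0.74 ± 0.94 (SE, adjusted p = 0.609) at P24 and -0.29 ± 2.43 (SE, adjusted p = 0.941) at P28. Col1a2 had -0.78 ± 0.75 (SE, adjusted p = 0.488) and -0.37 ± 1.81 (SE, adjusted p = 0.896), and Col3a1 -0.50 ± 0.74 (SE, adjusted p = 0.664) and -0.56 ± 1.68 (SE, adjusted p = 0.827). At P28 all 3 changed sign without control 2, to 0.71, 0.59 and 0.18. With 1 prior variance for all genes the standard errors of Col1a1 were 0.42 at P24 and 1.12 at P28, and DESeq2 gave Col1a1 a log2 difference of -1.14 ± 0.94 at P28. None of the 3 chains passed by either. Col5a1 and Col5a2, which set the diameter of collagen I fibrils, did not pass either (log2 differences -0.61 and -0.65 at P28). Their relative Col5a3, by contrast, held 11040.4, 8523 and 6818 in P28 control and 2625, 2699 and 2784 in P28 dM1/2, with no overlap, and fell by 1.67 ± 0.19 (SE, adjusted p = 0.00114). At P24 its log2 difference was -0.54 ± 0.42 (SE, adjusted p = 0.389). Col11a1 fell by 0.76 ± 0.15 (SE, adjusted p = 0.0108) at P24 and was at -0.31 ± 0.36 (SE, adjusted p = 0.552) at P28.

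Both chains of the main basement membrane collagen fell in anagen. Col4a1 held 36531, 38761 and 23865 normalized reads in P24 control and 15667, 18293 and 17546 in P24 dM1/2. At P28 it held 62205, 54804 and 57132 in control and 14808, 15697 and 18019 in dM1/2. Every dM1/2 library lay below every control at both ages, and the control values at P28 were tight while the same libraries differed widely in Col1a1. Col4a1 fell by 0.92 ± 0.23 (SE, adjusted p = 0.0248) at P24 and by 1.85 ± 0.23 (SE, adjusted p = 0.00166) at P28. The P24 call was lost without control 1 or 2 or dM1/2 1, 2 or 3 (log2 difference -0.96 to -0.79). Col4a2, its partner in the trimer, held 41592, 36885 and 47755 in P28 control and 12512, 13456 and 14984 in P28 dM1/2. It fell by 0.82 ± 0.18 (SE, adjusted p = 0.0159) at P24, lost without control 2 or dM1/2 1 (log2 difference -0.77 to -0.74), and by 1.62 ± 0.22 (SE, adjusted p = 0.00217) at P28. Neither gene passed in telogen, where the log2 differences of Col4a1 were -0.25 at P20 and 0.46 at P60. In P60 dM1/2 the library dM1/2 1 stood apart, with Col4a1 at 63223, 25453 and 35120 and Col4a2 at 31320, 14427 and 20611. The P60 controls held 29720, 29622 and 24427 for Col4a1 and 16404, 15940 and 13571 for Col4a2. The fall in anagen differed from the effect in telogen by -1.49 ± 0.25 (SE, adjusted p = 0.000253) for Col4a1 and -1.35 ± 0.21 (SE, adjusted p = 0.000146) for Col4a2. The other collagen IV chains were far less abundant. Col4a4 held 1163, 1204 and 491 in P28 control and 299, 222 and 207 in P28 dM1/2 and fell by 1.88 ± 0.36 (SE, adjusted p = 0.00784) at P28, with -0.12 ± 0.39 (SE, adjusted p = 0.855) at P24. Its head-to-head neighbour Col4a3 ranged from 44 to 514 in the P28 controls and did not pass (log2 difference -1.06 ± 0.91, adjusted p = 0.411). Col4a5 and Col4a6 did not pass at any age.

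Among the FACITs, 3 fell at both ages. Col14a1 held 26312, 29457 and 20945 normalized reads in P28 control and 5787, 7452 and 6504 in P28 dM1/2, so that the control mean was 3.89 times the dM1/2 mean. Col14a1 fell by 0.98 ± 0.30 (SE, adjusted p = 0.0468) at P24 and by 1.95 ± 0.21 (SE, adjusted p = 0.0009) at P28. The P24 call was lost without control 1 or 2 or dM1/2 1, 2 or 3 (log2 difference -1.17 to -0.70). Within each of the 8 groups Col14a1 stood in the same order as the other fibroblast marker sum, and the part of those cells in its fall was not tested. That sum was 9418, 16588 and 14101 in P28 dM1/2 and 29416, 50891 and 4298 in P28 control. Col16a1 held 14299, 16571 and 12985 in P24 control and 8765, 5119 and 5944 in P24 dM1/2. It fell by 1.18 ± 0.22 (SE, adjusted p = 0.0086) at P24 and by 1.14 ± 0.32 (SE, adjusted p = 0.031) at P28, without overlap at either age. The P28 call was lost without control 1 or 2 or dM1/2 1 or 2 (log2 difference -1.16 to -0.88). Col12a1 held 9050.3, 7521 and 7698 in P24 control and 3733, 6099 and 3733 in P24 dM1/2 and fell by 0.87 ± 0.21 (SE, adjusted p = 0.0215), lost without control 1 or 2 or dM1/2 1 or 3 (log2 difference -0.92 to -0.76). At P28 Col12a1 fell by 0.96 ± 0.19 (SE, adjusted p = 0.00818). Col19a1, a low-level FACIT, held 47.0, 95.4 and 115 in P28 control but 21.7, 3.0 and 2.81 in P28 dM1/2. It fell by 3.53 ± 0.76 (SE, adjusted p = 0.0121), a value that rests on few reads and was lost without dM1/2 2 (log2 difference -3.12). At P24 the same gene stood at 16.6, 26.6 and 39.3 in control and 87.6, 24.4 and 44.3 in dM1/2 and did not pass. Col20a1 and Col22a1 passed at neither age.

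Col23a1, a transmembrane collagen whose ectodomain can be shed, held 18748, 21196 and 21537 in P24 control and 9765, 8583 and 7489 in P24 dM1/2. At P28 it held 20873, 10872 and 28855 in control and 5547, 5353 and 7080.1 in dM1/2, and the groups overlapped at neither age. Col23a1 fell by 1.26 ± 0.16 (SE, adjusted p = 0.00252) at P24 and by 1.65 ± 0.36 (SE, adjusted p = 0.0123) at P28, and the latter was lost without dM1/2 2 (log2 difference -1.58). Within groups Col23a1 stood in the same order as the DP marker sum in 4 of 8, and was highest in the same library in 4 and lowest in the same library in 7. The DP markers themselves were lower in dM1/2 in anagen. Their sum was 207686, 234062 and 189979.8 in P24 dM1/2, below all 3 P24 controls, and 169767, 146226 and 159506 in P28 dM1/2, where control 2 lay among the dM1/2 libraries. Corin, whose locus directs the Cre, fell with them by 1.98 ± 0.20 at P24 (adjusted p = 0.00139) and by 3.33 ± 0.34 at P28 (adjusted p = 0.000836). Of the 16 DP markers 7 fell and 2 rose at P24, and 5 fell and 4 rose at P28 (of all genes tested 11.8% fell and 14.8% rose at P24, and 15.6% fell and 20.0% rose at P28). Their part in the collagen differences was not tested.

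Both multiplexins, which sit beside basement membranes, fell by P28. Col15a1, which ranked 7 of 44 in level per kb, held 62094, 62819.7 and 61142 in P24 control and 41254, 33415 and 32968 in P24 dM1/2, and at P28 82464, 46438 and 60885 in control and 24312, 24054 and 34879 in dM1/2. Every dM1/2 library lay below every control at both ages. Col15a1 fell by 0.80 ± 0.22 (SE, adjusted p = 0.0338) at P24, lost without control 1 or 2 or dM1/2 1, 2 or 3 (log2 difference -0.90 to -0.74), and by 1.17 ± 0.34 (SE, adjusted p = 0.0357) at P28, lost without control 1 or dM1/2 1, 2 or 3 (log2 difference -1.35 to -0.96). Col18a1 held 3082, 2986 and 1861 in P24 control and 2388, 2039 and 2127 in P24 dM1/2, which overlapped. At P28 it held 5346, 8497 and 5823 in control and 2178, 2909.6 and 3721 in dM1/2 and fell by 1.16 ± 0.26 (SE, adjusted p = 0.013), lost without dM1/2 2 (log2 difference -1.17). The collagen VI chains Col6a1, Col6a2 and Col6a3 did not pass at either age by limma with its trend (log2 differences -0.54, -0.52 and -0.88 at P28). Of these Col6a3 passed at P28 with 1 prior variance for all genes (adjusted p = 0.00666). Col6a5 held 2150.5, 1543 and 618 in P28 control and 667, 353 and 386 in P28 dM1/2 and fell by 1.5 ± 0.47 (SE, adjusted p = 0.0468). Here dM1/2 1 lay above control 3, and the call was lost without control 1 or 2 or dM1/2 1, 2 or 3 (log2 difference -1.78 to -1.12).

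The members that rose were mostly low in control. Col26a1 held 933, 1158 and 693 normalized reads in P24 control and 3855, 4513 and 7232 in P24 dM1/2. At P28 it held 1040.4, 447 and 1003 in control and 6728, 9707 and 8791 in dM1/2. The dM1/2 mean was 5.6 times the control mean at P24 and 10.1 times at P28, where it came to 1028 per kb. Col26a1 rose by 2.46 ± 0.27 (SE, adjusted p = 0.00167) at P24 and by 3.42 ± 0.34 (SE, adjusted p = 0.000782) at P28, and passed at both ages without any one library. Col9a2 held 559, 452 and 1009 in P24 control and 1674, 1552 and 1686 in P24 dM1/2. At P28 the control held 275, 51.9 and 184, lower than at P24, while dM1/2 held 2187, 2607 and 2854. Col9a2 rose by 1.37 ± 0.27 (SE, adjusted p = 0.0103) at P24 and by 4.19 ± 0.56 (SE, adjusted p = 0.00201) at P28. The P24 call was lost in a fit of all 24 libraries together. Col9a1 held 117, 178 and 129 in P24 control and 273, 323 and 419 in P24 dM1/2. It rose by 1.26 ± 0.23 (SE, adjusted p = 0.00732), a call also lost in that joint fit. At P28 it held 369.7, 308 and 429 in control and 392, 560.5 and 443 in dM1/2, which overlapped (log2 difference 0.33 ± 0.19, adjusted p = 0.223). Col9a3 held 31.7, 49.2 and 62.3 in P24 control and 116, 112 and 144 in P24 dM1/2, and at P28 20.9, 12.8 and 15.5 in control and 96.4, 68.6 and 118 in dM1/2. It rose by 1.40 ± 0.28 (SE, adjusted p = 0.0112) at P24 and by 2.44 ± 0.32 (SE, adjusted p = 0.00189) at P28. However, 234 of its exon bases overlap Tcfl5 on the opposite strand. Tcfl5 rose by 1.93 ± 0.24 at P24 (adjusted p = 0.00236) and by 2.01 ± 0.44 at P28 (adjusted p = 0.0132), so the value of Col9a3 is uncertain because the strand setting of the counting is not given.

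Col6a4, a collagen VI chain, held 64.2, 68.3 and 23.0 in P24 control and 89.0, 280.3 and 274 in P24 dM1/2. At P28 the control held 12.6, 4.48 and 23.1 and dM1/2 262, 287 and 385. Col6a4 rose by 2.0 ± 0.56 (SE, adjusted p = 0.0347) at P24, lost without control 2 or 3 or dM1/2 2 or 3 (log2 difference 1.51 to 2.27), and by 4.66 ± 0.53 (SE, adjusted p = 0.00113) at P28, where it passed without any one library. Col27a1 held 548, 677 and 881 in P24 control and 1471, 1491 and 1027 in P24 dM1/2, and at P28 518, 427 and 457 in control and 1593, 1246 and 1183 in dM1/2. It rose by 0.93 ± 0.22 (SE, adjusted p = 0.0182) at P24, lost without control 2 or dM1/2 1 or 2 (log2 difference 0.83 to 0.91), and by 1.51 ± 0.15 (SE, adjusted p = 0.000826) at P28. All 6 anagen dM1/2 values lay within the range of the 6 telogen controls, 885 to 1733. Col7a1 held 765, 1874 and 572 in P28 control and 1872, 2779 and 3035 in P28 dM1/2. It rose by 1.42 ± 0.44 (SE, adjusted p = 0.042), with dM1/2 1 below control 2, and the call was lost without control 1 or 3 or dM1/2 1, 2 or 3 (log2 difference 1.07 to 1.63). Collagens II, IX, XI and XXVII are known from cartilage. Of 12 skeletal cell markers 8 were tested, of which 2 (Sox9 and Ibsp) rose at P24, against 14.8% of all genes, and 4 (Sox9, Hapln1, Ibsp and Runx2) rose at P28, against 20.0%. Their sum was 2637, 2421 and 2547 normalized reads in P24 control and 3674, 4039.6 and 4334 in P24 dM1/2, and 1977, 1615 and 1727 in P28 control and 3078, 3260.2 and 3588 in P28 dM1/2. It was thus higher in every dM1/2 library than in every control at both anagen ages, as were Col9a2, Col9a3 and Col27a1. Col11a1 went the other way at P24, with 12451, 13034 and 14652 in control and 8890, 7826 and 7032 in dM1/2. At P28 its groups overlapped. The skeletal marker sum ranged from 687 to 4334 normalized reads over the 24 libraries, the bone marker Bglap was under 10 in every library, and the part of such cells was not tested. Col2a1 itself did not pass, with 17.8, 14.1 and 4.55 in P28 control and 16.2, 24.0 and 17.7 in P28 dM1/2, nor did Col10a1 (log2 difference 1.52 ± 0.50, adjusted p = 0.0537) or Col11a2 (log2 difference 0.03 ± 0.44, adjusted p = 0.966).

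**Figure D5:**
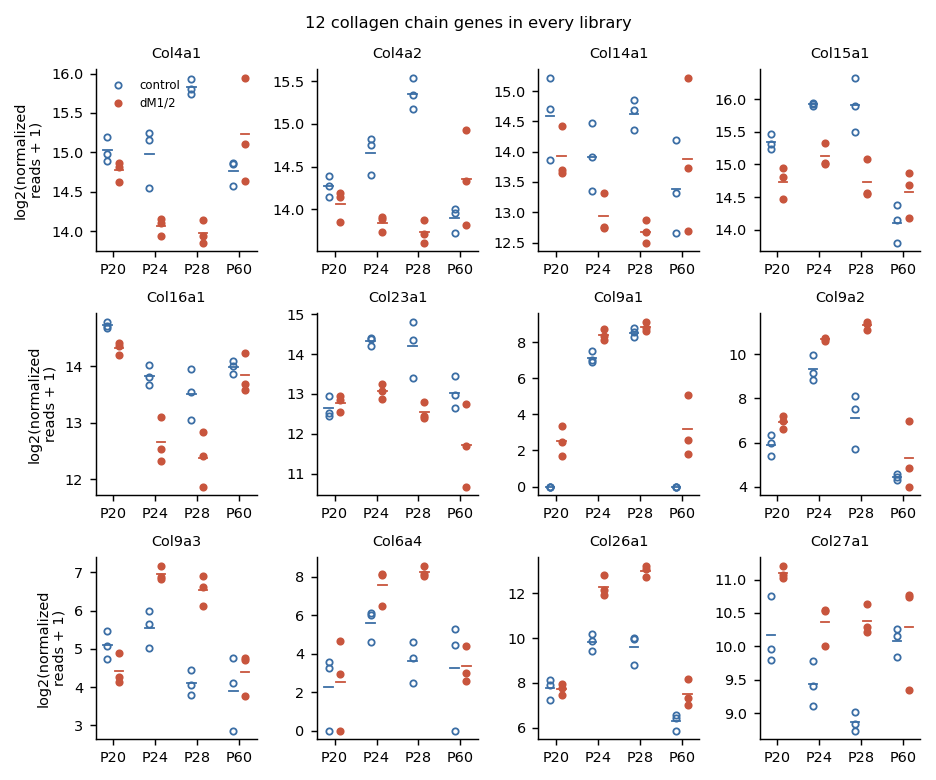
Level of 12 collagen chain genes in each of the 24 libraries, as log2(normalized reads + 1) against age; open blue circles are control, filled red circles dM1/2 and short lines the group means. In Col4a1, Col4a2, Col15a1 and Col16a1 the dM1/2 points lie below the control points at P24 and P28, and in Col26a1 and Col9a2 above them.

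In the first telogen (P20) 0 of 40 members tested passed by limma (15 at an unadjusted p under 0.05), against 0.433% of all genes, and 0 passed by edgeR. Col6a4, Col9a1, Col10a1 and Col19a1 were below the filter of a mean of 10 normalized reads. DESeq2 called 15, with 13 lower and 2 higher, and limma called 10 without control 1. Of the 40 members, 15 were lower in every dM1/2 library than in every control, against 13.3% of all genes, and 29 had a log2 difference below 0, against 50.7%. The median was -0.37, against -0.00629 over all genes. Col1a1 held 6100056, 7735874 and 6769696 normalized reads in control and 4295095, 3986772 and 3116629 in dM1/2. Col1a2 held 3305480.0, 4189349.6 and 3619717 in control and 2240407, 2164905 and 1632026 in dM1/2. Col3a1 held 2440784, 3302519.7 and 2809533 in control and 1769127, 1900196 and 1414514 in dM1/2. All 3 chains were lower in each dM1/2 library than in any control, with log2 differences of -0.86 ± 0.92 (SE, adjusted p = 0.631), -0.89 ± 0.70 (SE, adjusted p = 0.503) and -0.75 ± 0.64 (SE, adjusted p = 0.539) by limma. With 1 prior variance for all genes the standard errors were 0.17, 0.18 and 0.18 (adjusted p = 0.161, 0.161 and 0.176), and DESeq2 called each of them (adjusted p = 7.87e-05, 5.04e-05 and 0.00114). The other fibroblast markers differed in the same way at this age, at 44177, 73326 and 55317 in control and 36173, 40358 and 28841 in dM1/2, and the DP markers in the opposite way, at 47666, 39247 and 46317 in control and 71381, 56018 and 65937 in dM1/2. Neither sum overlapped between the genotypes. By gene, 0 of 10 other fibroblast markers and 1 of 16 DP markers (Sox18, which rose) passed by limma, against 0.433% of all genes. The part of these markers in the collagen values was not tested. In the opposite direction, Col9a2, Col13a1, Col27a1 and Col11a2 were higher in every dM1/2 library than in every control, 4 of 40 against 12.1% of all genes, by 0.86 to 1.03 on the log2 scale, and did not pass.

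In the second telogen (P60) 0 of 42 members tested passed, and 0.0% of all 14042 genes did. The counts at an unadjusted p under 0.05 were 4 members and 525 genes. edgeR and DESeq2 called 0 members, and the fit of all 24 libraries called 1. Of the 42, 6 had a log2 difference below 0, against 46.4% of all genes, and the median was 0.39, against 0.02 over all genes. Col1a1 held 1075063, 1187812 and 1013811 in control and 1076984, 1320827 and 1579973 in dM1/2 (log2 difference 0.27 ± 0.86, adjusted p = 0.998). Col1a2 and Col3a1 had log2 differences of 0.24 ± 0.70 (SE, adjusted p = 0.998) and 0.32 ± 0.70 (SE, adjusted p = 0.996). A single library, P60 dM1/2 1, stood apart in several members. Col5a3 held 22049.6, 3397 and 5259.9 in the 3 dM1/2 libraries, Col4a3 1081, 236 and 193 and Col28a1, a collagen of nerves and skin, 489.8, 75.4 and 106. The same library had the highest other fibroblast marker sum of all 24, 137014, and the highest immune sum, 2282. It also had the lowest DP marker sum of all 24, 19793. Its sums of melanocyte markers (2764) and of endothelial and mural markers (11426) were the highest. Col14a1 held 18606, 6459 and 10211 in control and 37891, 13515 and 6571 in dM1/2, while Col1a1 was lowest in dM1/2 1 of the 3. Without P60 dM1/2 1 the test still passed for 0 members. The count of differences below 0 and the median given above include this library. Col9a1, at 0 in all 6 telogen control libraries, had 4.55, 2.21 and 9.25 normalized reads in P20 dM1/2 and 2.52, 5.03 and 32.9 in P60 dM1/2. These are few reads, and the gene was below the filter at both ages. In the fit of all 24 libraries it was the 1 member called at P60 (adjusted p = 0.0167) and it did not pass at P20 (adjusted p = 0.0733), and without a filter on low values it passed at neither age (adjusted p = 0.125 and 0.925).

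The effect of the mutation differed between anagen and telogen for 12 of 44 members, 3 with a higher and 9 with a lower effect in anagen, against 30.2% of all 14243 genes tested (16.1% with a higher and 14.1% with a lower effect). The more positive effects in anagen were those of Col26a1, Col9a3 and Col9a2 (2.34, 2.0 and 1.84 on the log2 scale). The more negative ones were those of Col9a1, Col4a1, Col14a1, Col4a2, Col17a1, Col15a1, Col16a1, Col6a3 and Col18a1, from -2.04 to -0.55. The telogen controls of Col9a1 held no read, so that its fitted telogen effect depends on the pseudocount, and with a pseudocount of 10 it did not pass. Col26a1, Col9a3, Col9a2, Col9a1, Col4a1, Col4a2, Col15a1 and Col16a1 passed without any one of the 24 libraries. Of these Col9a2 did not pass by edgeR (adjusted p = 0.0777). The other 4 calls rested on single libraries: Col17a1 passed without 16 of 24 libraries left out in turn (log2 difference -1.09 to -0.97 where it did not), Col14a1 without 10 (-1.40 to -1.04), Col18a1 without 6 (-0.58 to -0.45) and Col6a3 without 3 (-0.71 to -0.58). Col18a1 also did not pass by edgeR, without a filter, after scaling without collagen reads, with a replicate block or with 1 prior variance (adjusted p = 0.054 to 0.0694). Col6a3 did not pass without a filter, after scaling without collagen reads or with the block (adjusted p = 0.0566 to 0.192), nor Col14a1 without a filter (adjusted p = 0.0559). Col17a1, a transmembrane collagen of hemidesmosomes, was low and passed at no single age, with 31.8, 44.2 and 17.8 in P28 control and 25.6, 17.6 and 22.1 in P28 dM1/2. Col6a3, the long chain of collagen VI, held 104948, 139091 and 124594 in P20 control and 114983, 104970.4 and 98118 in P20 dM1/2, which overlapped, and 108143, 95708 and 117133 in P28 control and 54101, 57576 and 62609 in P28 dM1/2, which did not.

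Partner chains of a trimer were compared within each library. The ratio of Col1a1 to Col1a2 reads, which needs no normalization between libraries, was 1.75, 1.78 and 1.5 in P28 control and 1.79, 1.69 and 1.82 in P28 dM1/2. Over all 24 libraries it stayed between 1.38 and 1.92, while Col1a1 itself varied from 255769 to 7735874 normalized reads. The ratio of Col6a1 to Col6a2 lay between 0.807 and 1.08. The ratio of Col4a1 to Col4a2 was 1.5, 1.49 and 1.20 in P28 control and 1.18, 1.17 and 1.20 in P28 dM1/2, so that control 3 lay among the dM1/2 libraries (exact permutation p = 0.2). In telogen it was higher in both genotypes, from 1.59 to 2.02, than in anagen, from 1.10 to 1.5. Of 20 exact two-sided permutation tests on 5 ratios at 4 ages none had an adjusted p below 0.667, and with 3 libraries against 3 the smallest p that can be reached is 0.1.

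Collagen chains are hydroxylated, chaperoned, trimmed and crosslinked by dedicated enzymes, 32 of which were listed. At P24 1 of the 31 tested rose (Plod3) and 4 fell (Fkbp10, P3h3, Loxl4 and Colgalt2), and at P28 3 rose and 5 fell, 5 and 8 of 31 in all, against 26.6% and 35.5% of all genes tested. No enzyme passed at P20 or P60 by limma. P4ha3, a subunit of the prolyl 4-hydroxylase that stabilises the helix, ranged from 22.8 to 69.2 normalized reads in P28 control and from 139 to 251 in P28 dM1/2, and rose by 2.32 ± 0.44 (SE, adjusted p = 0.00733). P3h2, a prolyl 3-hydroxylase, rose by 2.04 ± 0.40 (SE, adjusted p = 0.00846). Adamts3, a protease that trims procollagen, rose by 0.85 ± 0.19 (SE, adjusted p = 0.014), lost without dM1/2 3 (log2 difference 0.84). Among the falls, Loxl4, a crosslinking oxidase of the lysyl oxidase family, held 1469, 1983 and 2837 in P28 control and 472, 634 and 1128 in P28 dM1/2 (in ascending order) and fell by 1.54 ± 0.36 (SE, adjusted p = 0.0168), lost without control 1 or dM1/2 1 or 2 (log2 difference -1.55 to -1.26). Adamts2, the main procollagen N-proteinase of skin, fell by 1.31 ± 0.42 (SE, adjusted p = 0.0488), lost without control 1 or 2 or dM1/2 1, 2 or 3 (log2 difference -1.54 to -0.93). P3h3 fell by 1.18 ± 0.17 (SE, adjusted p = 0.00276) and Fkbp10, a collagen chaperone, by 1.14 ± 0.24 (SE, adjusted p = 0.0112). The collagen chaperone Serpinh1 did not pass (log2 difference -0.46 ± 0.41, adjusted p = 0.428).

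Of 8 collagen receptors, 3 fell at P24 (Mrc2, Itgb1 and Ddr2), 4 fell at P28 and none rose at either age, while 11.8% of all genes fell at P24 and 15.6% at P28. Ddr2, the receptor tyrosine kinase for fibrillar collagen, held 11545, 11764 and 12339 in P28 control and 5239.6, 5264 and 5895 in P28 dM1/2 in ascending order, and fell by 1.12 ± 0.14 (SE, adjusted p = 0.00153). Mrc2, the endocytic receptor that clears collagen fragments, fell by 1.05 ± 0.15 (SE, adjusted p = 0.00286). Itga1, whose integrin binds collagen IV, fell by 0.93 ± 0.18 (SE, adjusted p = 0.00795), and its partner Itgb1 by 0.60 ± 0.18 (SE, adjusted p = 0.0421), lost without control 1 or 2 or dM1/2 1, 2 or 3 (log2 difference -0.71 to -0.45). No receptor passed at P20 or P60.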

How the data were processed

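RNA was prepared from FACS-sorted DP cells, depleted of ribosomal RNA, made into directional libraries and sequenced as 50-base single reads. Trimming was by Trimmomatic, alignment to mm10 by TopHat 2, gene counting by HTSeq with the GRCm38.p4 annotation and normalization by DESeq2, all by the authors, per the labels' processing notes and the methods. The strand setting of the counting is not given in the sources used here. The deposited values are a signal per gene, namely read counts divided by 1 size factor per library, and the authors' mean per gene is the same in the 4 tables and equals the mean over all 24 libraries, so the libraries were scaled together. Dividing by the value of 1 read gave whole reads for 100.0% of values at a tolerance of 0.001 read, and edgeR and DESeq2 were run on these reads as alternatives. At P24 edgeR called 3746 genes and at P28 4918, against 3735 and 5018 by limma.

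Genes were tested with limma 3.58.1 (R 4.3.3, trended prior variance) on log2(normalized reads + 1), which understates the change of low genes, after a filter of a mean of 10 normalized reads over the libraries of a fit. P-values were adjusted by the Benjamini-Hochberg method over all genes tested, with a threshold of 0.05. Genotypes were compared within each age, ages within the 12 controls, and differences of effects over all 24 or the 12 anagen libraries. The code was tested on simulated data. edgeR 4.0.16 and DESeq2 1.42.0 were alternatives, as were a pseudocount of 10, no filter, scaling without collagen reads, a replicate block, all libraries in 1 fit and the omission of each library. A fit with 1 prior variance for all genes was added after the data had been seen. Fully described members were, at P24 and P28, the up to 6 largest rises and falls that passed without overlap, the 3 most abundant chains, the up to 4 largest rises and falls in each comparison of ages and those that passed for a difference of effects, with up to 4 enzymes and receptors in each direction at P28. Other members were named after their values were seen. The members and gene lists were chosen with earlier results of these data known. Each library came from 1 mouse, and no pair of libraries agreed within sampling noise. Precision was limited by the 3 mice per group, and a count of 0 was taken as up to 3 reads, which covers counting error only. Promoters came from RefSeq, and exon lengths from the annotation of the same build.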

Additional observations from a re-analysis of the deposited data

Results flagged for a closer look

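The effect of the mutation, as the log2 difference of dM1/2 minus control, was set against itself in anagen and in telogen by limma's test of the difference over all 24 libraries, and 12 collagen chains passed at an adjusted p under 0.05. Anagen and telogen libraries also differed in sex and depth, which cannot be told apart from the stage. Among the basement membrane chains, Col4a1 differed by -1.49 and Col4a2 by -1.35. The effects on Col4a1 were -0.25, -0.92, -1.85 and 0.46 at P20, P24, P28 and P60 in turn, and on Col4a2 -0.21, -0.82, -1.62 and 0.46. Of the multiplexins, Col15a1 differed by -0.92 and Col18a1 by -0.55. Col15a1 had effects of -0.60, -0.80, -1.17 and 0.47, and passed at neither P20 nor P60, and Col18a1 of -0.59, -0.24, -1.16 and 0.29.

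Col26a1 differed by 2.34, with effects of -0.02, 2.46, 3.42 and 1.22 in the same order of ages. Col9a2 differed by 1.84 and Col9a3 by 2.0, and their effects were 1.03, 1.37, 4.19 and 0.83 and -0.65, 1.40, 2.44 and 0.50. Col9a1 differed in the other direction, by -2.04, with telogen controls at 0 reads. Of the FACITs that fell, Col14a1 differed by -1.37 and Col16a1 by -0.88, with effects of -0.67, -0.98, -1.95 and 0.49 and of -0.40, -1.18, -1.14 and -0.15. Col17a1 differed by -1.16 and Col6a3 by -0.66, and by limma with its variance trend neither passed at any single age.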

How the results depend on the processing

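The counts of collagen genes that passed moved both with single libraries and with the test. When each library was left out in turn they ranged from 0 to 10 at P20 (0 with all), from 7 to 18 at P24 (14), from 11 to 26 at P28 (18), from 18 to 25 for anagen against telogen (21), from 1 to 6 for P28 against P24 (6), from 1 to 13 for P60 against P20 (6), from 8 to 17 for the difference of effects between anagen and telogen (12) and from 0 to 2 for that between P28 and P24 (0), while they stayed at 0 at P60. DESeq2 called 15 members at P20, 11 for P28 against P24, 13 for P60 against P20, 19 for the difference between anagen and telogen and 6 for that between P28 and P24. The fit of all 24 libraries called 9 at P24 and 1 at P60. Among the fully described members, the P24 calls of Col6a4, Col9a1, Col9a2, Col12a1 and Col14a1 were lost in that fit. With a replicate block the P24 calls of Col4a1, Col4a2, Col6a4, Col12a1 and Col27a1 were lost. Those of Col4a1 and Col14a1 were lost without a filter, and those of Col6a4 and Col14a1 with 1 prior variance for all genes. The cause of these shifts was not tested. Over all genes at P20, limma called 60 (49 higher, 11 lower), DESeq2 668 (296 higher, 372 lower), the fit of all libraries 23 and that with 1 prior variance 1. At P60 limma called 0 of all genes, DESeq2 26, the pseudocount of 10 1 and the fit of all libraries 19, and for P28 against P24 limma called 794 and DESeq2 1882. For the difference between P28 and P24 limma called 100, DESeq2 595, the pseudocount of 10 151 and 1 prior variance 59.

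The labels do not say whether the replicate numbers pair control and dM1/2 mice. For each library the deviation of every gene from the mean of its group was taken on the log2 scale. These deviations, not the levels themselves, were correlated over genes between control and dM1/2 libraries of an age. Differently numbered libraries gave correlations from -0.37 to 0.40. Same-numbered libraries gave -0.40 to 0.34, and at no age was the value above 0.1 in all 3 pairs. For same-numbered libraries it was 0.23, 0.08 and 0.12 at P20 and 0.34, 0.02 and 0.17 at P60. At P24 it was -0.18, 0.04 and -0.40, and at P28 -0.15, 0.03 and -0.23. With 3 pairs per age these values cannot decide whether the mice were paired. A replicate block gave 7 members at P20, 8 at P24, 16 at P28, 0 at P60, 21 for anagen against telogen, 6 and 6 for the other comparisons of ages, and 15 and 0 for the differences of effects. For the comparisons of ages the block joined controls of the same number across ages, and the labels give no link between these mice. Their deviations correlated at -0.29 to 0.32 between ages, so this block is no check of a known pairing. Over all genes the block called 439 at P20 (240 higher, 199 lower), 2366 at P24, 6 at P60 and 0 for the difference between P28 and P24.

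For the genes named with a test, the 578 values under other settings kept direction throughout, with 536 on the same side of the threshold, 39 no longer past it and 3 newly past it. Of 780 values with a library left out, 625 stayed on the same side, 152 lost the call and 3 changed sign. These were Col1a1 (-1.54 to 0.71), Col1a2 (-1.54 to 0.59) and Col3a1 (-1.52 to 0.18) at P28, given as the range over the omissions. Log2 differences of ratios, none of which passed, changed sign for Col1a1 to Col1a2 at P60 (-0.0238 to 0.12), Col4a1 to Col4a2 at P60 (-0.0726 to 0.050), Col5a1 to Col5a2 at P24 (-0.00266 to 0.11), P28 (-0.0166 to 0.0848) and P60 (-0.14 to 0.14), and Col3a1 to Col1a1 at P28 (-0.54 to 0.0171) and P60 (-0.21 to 0.23). Col9a1, Col6a4, Col10a1 and Col19a1 had few or no reads in telogen, where the libraries were also shallower. The part of depth in these low values was not tested.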
